A study of Stylosanthes guianensis with 6 samples.

Results

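The transporters described here were 38 unigenes from roots of stylo (Stylosanthes guianensis), a tropical forage legume. A unigene is a transcript sequence assembled from the reads without a reference genome. The study's list of transporters placed 20 of them under sulfate, 4 under magnesium, 4 under metal tolerance proteins (MTP) and 10 under cation/proton transporters. They were 38 of the 279 unigenes on that list and of the 173014 unigenes in the files. The list held unigenes that differed between the phosphorus treatments in these same libraries, so the members were chosen by the contrast described below. Their changes are therefore given as a description with no p-value, and how many of them changed is not a finding.

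Seedlings of the cultivar RY2 were grown in hydroponics and then supplied for 21 d with 0 µM KH2PO4 (low P, LP) or 250 µM KH2PO4 (high P, HP, titled CK). Root RNA of 3 samples per treatment was sequenced, and the study describes a replicate as a hydroponic box with 3 seedlings. All samples were of this 1 cultivar. The phosphorus field of the labels gives 250 µM for the libraries titled LP and 0 µM for those titled CK, which is the opposite of the study's methods. The titles and the methods were followed here. The extraction text of the labels speaks of leaves, whereas the tissue field and the methods name roots. Phosphate was supplied as the potassium salt, and the sources used here do not say whether potassium was made up in the LP solution, so phosphate and potassium supply cannot be told apart.

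Plants take up sulfate through proton-coupled transporters of the SULTR family, which fall into 4 groups. Group 1 holds high-affinity carriers, among them those of root uptake, and the founding plant members were cloned from Stylosanthes hamata, a relative of stylo. Group 2 holds low-affinity carriers of the vascular tissue. Group 3 is diverse, and in Arabidopsis some of its members carry sulfate into plastids, while SULTR3;4 of rice and Arabidopsis moves phosphate towards growing organs. Group 4 releases sulfate from the vacuole in Arabidopsis. Sulfur and phosphorus supply are linked in plants through membrane lipids, because phosphorus-starved cells replace part of their phospholipid with the sulfolipid that the enzyme SQD2 completes. MRS2 proteins are magnesium channels related to bacterial CorA. MTPs belong to the cation diffusion facilitators, which move metals such as manganese and zinc out of the cytosol. CAX proteins exchange calcium for protons at the vacuole, and the K+/H+, Na+/H+ and CHX antiporters exchange monovalent cations for protons.

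The LP libraries held 20643446 to 21784888 counts and the HP libraries 15586353 to 17821019, so LP was the deeper treatment. The first principal component took 49.5% of the variance and separated the treatments, and the second (14.8%) set HP 2 apart. Of 62040 unigenes tested, 8183 (13.2%) were called, meaning an adjusted p under 0.05 in edgeR's quasi-likelihood test and a change of at least 2-fold. Called unigenes were higher under LP in 3780 cases (6.09%) and lower in 4403 (7.10%). The 4 unigenes described as inorganic phosphate transporter 1-4-like, carriers of phosphate uptake that phosphate starvation raises in other plants, were all higher under LP. They too were listed by the study for this contrast, so they are no separate check of the treatment. The study also reports phosphate transporters that were lower. The most abundant of the 4, Cluster-8255.75186, had 135, 125 and 177 FPKM (mapped fragments scaled for unigene length and library size) in LP libraries 1, 2 and 3 and 5.75, 7.28 and 6.0 in HP libraries 1, 2 and 3. The bulk RNA of a whole root does not tell fewer cells of a type from less RNA per cell, and this holds for every change below.

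Of the 38 members, 37 passed the filter on low counts and 33 were called, 12 higher and 21 lower under LP, against 13.2% of all tested unigenes called, 6.09% higher and 7.10% lower. Because the list used this contrast, nothing is read from that excess. The normalized counts of LP and HP did not overlap in 37 of the 38 members, against 42.4% of all tested unigenes, and the exception was Cluster-8255.57695, a sulfate transporter with no reads in HP 2. The median log2 fold change over the tested members was -1.19, against 0.03 over all tested unigenes. Among called members with reads in both treatments, increases ranged from 1.05 to 5.99 on the log2 scale (12 unigenes) and decreases from -1.04 to -4.77 (18 unigenes). The other 3 called members had no read in any LP library. Of the 33 calls, 23 held in each of the 6 fits that left out 1 library and 10 were lost in at least 1 of them, and these are named below. In the text below, values are given in the order of replicates 1, 2 and 3 of each treatment, and all log2 fold changes are LP over HP.

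**Figure D1:**
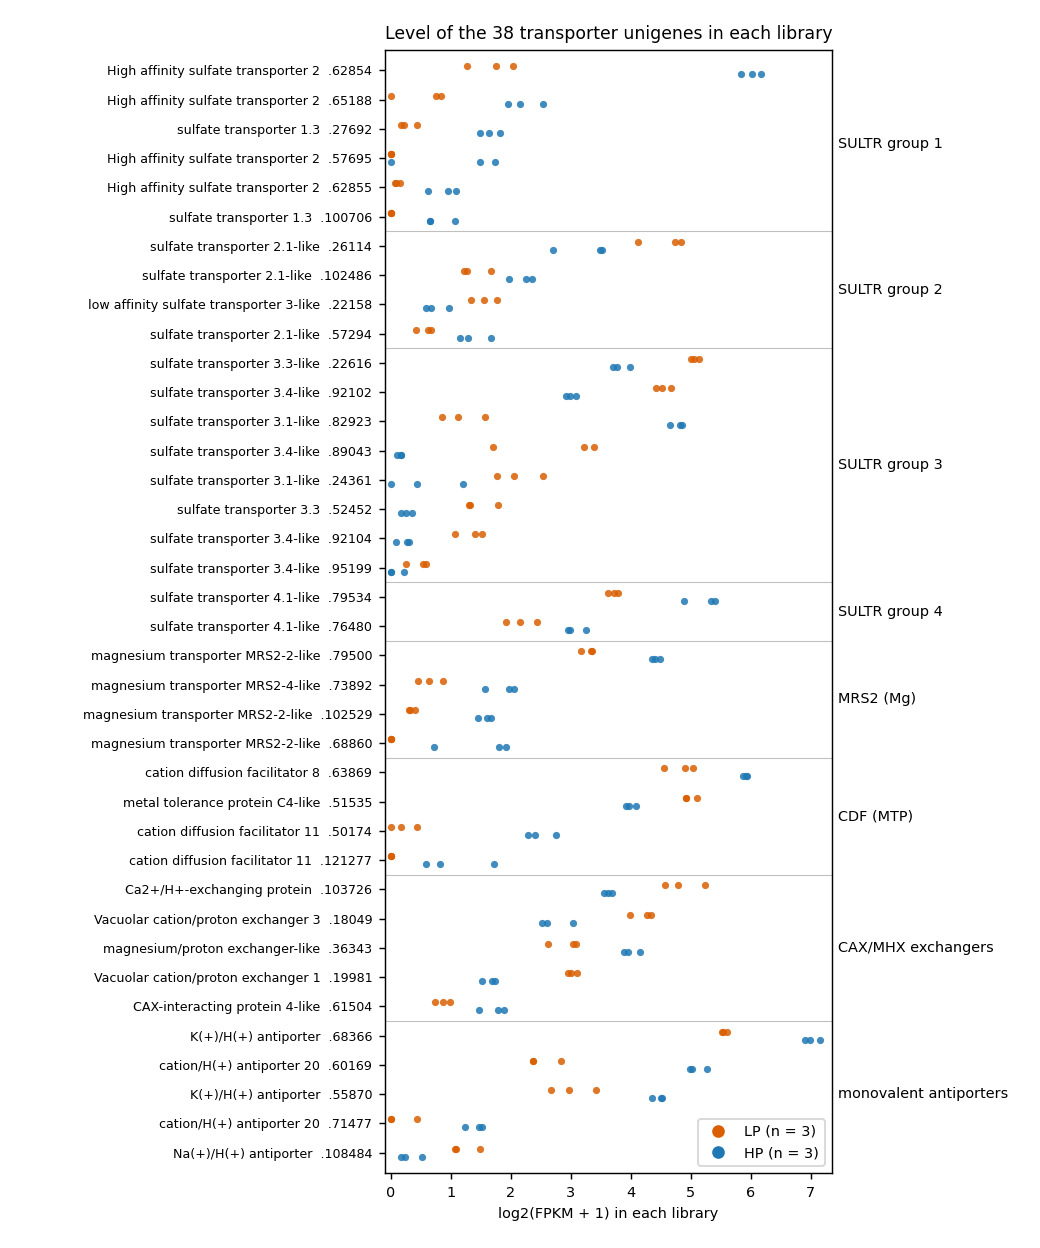
Level of each of the 38 members in every library, as log2(FPKM + 1) on the horizontal axis, with 3 LP libraries in orange and 3 HP libraries in blue. Members are grouped by role and labelled with their description and the last part of their identifier, and the widest gaps between treatments are seen in Cluster-8255.62854 of SULTR group 1 and Cluster-8255.82923 of group 3.

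Sulfate transporters differed in direction by group. All 4 called members of group 1, the high-affinity carriers, were lower under LP, while group 3 held 5 of the 7 sulfate transporters that were higher. Group 2 was divided, with 2 higher and 2 lower, and both group 4 members were lower. In all, 16 of the 19 tested sulfate transporters were called, 7 higher and 9 lower.

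In group 1, 4 unigenes matched High affinity sulfate transporter 2 of S. hamata, a root uptake carrier. Cluster-8255.62854 was the most abundant, with 1.41, 2.37 and 3.12 FPKM under LP and 64.0, 56.2 and 70.6 FPKM under HP. Each HP library was thus far above each LP library, and HP 2 was the lowest of the HP libraries. The fitted change was 27.3-fold (log2 fold change -4.77, SE 0.29), the widest decrease among members with reads in both treatments. Cluster-8255.62855 had the same direction at a much lower level, with 0.11, 0.06 and 0.05 FPKM under LP and 1.12, 0.54 and 0.93 under HP (log2 fold change -3.51, SE 0.58). Cluster-8255.65188 held 34, 0 and 39 reads under LP and 119, 173 and 130 under HP. Its treatments did not overlap, but LP 2 had no read while the other LP libraries had 34 and 39, and the change was not called (log2 fold change -2.88, SE 0.96). Cluster-8255.57695 held no read in any LP library and 97, 0 and 68 reads under HP, so it was seen in only 2 of 6 libraries and was not tested. Against a floor of 3 reads over the LP libraries it was at least 69.3-fold lower under LP, and at least 44.7-fold lower whichever HP library was left out. This bound pools the reads of the HP libraries, although HP 2, like every LP library, had none.

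The other group 1 members were 2 unigenes described as sulfate transporter 1.3, which in Arabidopsis acts in the phloem. Cluster-8255.27692 had 0.17, 0.35 and 0.13 FPKM under LP and 1.8, 2.09 and 2.52 under HP (log2 fold change -3.27, SE 0.42). Its lowest HP library was above its highest LP library. Cluster-8255.100706 had no LP read and 22, 10 and 10 reads under HP, at least 17.6-fold lower under LP against the floor of 3 reads. This call was lost when any 1 HP library was left out, and the bound was then no lower than 13.2-fold.

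Summed over the group, the 6 unigenes reached 3.08 ± 0.898 FPKM under LP and 72.4 ± 7.86 under HP (mean ± SD, n = 3), a 23.5-fold lower level under LP. Cluster-8255.62854 made up 87.8% of that sum under HP, so the group's level was nearly that of 1 unigene.

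Group 2 carriers move sulfate within the vascular tissue. Of 3 unigenes described as sulfate transporter 2.1-like, the abundant one rose and the others fell. Cluster-8255.26114 had 25.6, 27.6 and 16.4 FPKM under LP and 10.5, 10.2 and 5.48 under HP (log2 fold change 1.42, SE 0.29). Both treatments were lowest in replicate 3, and the call was lost without LP 1 (1.35) or LP 2 (1.3), the log2 fold change of the remaining libraries being given in brackets. Cluster-8255.102486 had 1.32, 1.42 and 2.17 FPKM under LP and 4.13, 3.79 and 2.93 under HP (log2 fold change -1.12, SE 0.25). The highest LP library, LP 3, lay close below the lowest HP library, HP 3, and the call was lost without LP 1 (-0.98), LP 2 (-1.01), HP 1 (-0.99) or HP 2 (-1.09). Cluster-8255.57294 had 0.34, 0.59 and 0.53 FPKM under LP and 2.19, 1.23 and 1.44 under HP (log2 fold change -1.71, SE 0.38), with its call lost without LP 1 (-1.48), HP 1 (-1.40) or HP 3 (-1.79). Cluster-8255.22158, described as low affinity sulfate transporter 3-like after a carrier first cloned from S. hamata, had 1.92, 2.41 and 1.52 FPKM under LP and 0.95, 0.51 and 0.59 under HP (log2 fold change 1.51, SE 0.33). Its LP libraries were all above its HP libraries, and the call was lost without LP 1 (1.52), LP 2 (1.36), HP 2 (1.34) or HP 3 (1.41). None of the 4 calls in group 2 thus held in every fit with a library left out. The summed level was 27.3 ± 5.93 FPKM under LP and 14.6 ± 3.78 under HP, and Cluster-8255.26114 made up 85.1% of it under LP.

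Group 3 held the largest increases. In this group 4 unigenes were described as sulfate transporter 3.4-like, the type that moves phosphate in rice and Arabidopsis, and each had a higher estimate under LP. Cluster-8255.92102 was the most abundant of them, with 21.8, 24.4 and 20.3 FPKM under LP and 6.96, 7.53 and 6.6 under HP (log2 fold change 1.67, SE 0.10). Replicates were close to each other within each treatment, and every LP library was above every HP library. Cluster-8255.89043 had 9.46, 8.34 and 2.26 FPKM under LP and 0.12, 0.12 and 0.08 under HP, a fitted 63.5-fold increase (log2 fold change 5.99, SE 0.66). LP 3 stood well below LP 1 and LP 2, yet still above every HP library, and the estimate with 1 library left out ranged from 5.65 to 6.40. Cluster-8255.92104 had 1.63, 1.86 and 1.11 FPKM under LP and 0.06, 0.21 and 0.24 under HP (log2 fold change 3.18, SE 0.48). Cluster-8255.95199 held 60, 22 and 52 reads under LP and 16, 0 and 0 under HP. Its reads under HP came from HP 1 alone, and the change was not called (log2 fold change 2.78, SE 1.33), with estimates of 2.2 to 8.34 when 1 library was left out. Summed, the 4 unigenes had 30.8 ± 5.81 FPKM under LP and 7.36 ± 0.472 under HP, a 4.18-fold higher level under LP.

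Sulfate transporter 3.3 is known from rice, where its loss lowers grain phytate, a store of phosphorus. Cluster-8255.22616, described as 3.3-like, had 32.2, 34.3 and 31.2 FPKM under LP and 12.1, 12.6 and 14.8 under HP (log2 fold change 1.32, SE 0.10). It was the most abundant sulfate transporter on the list under LP. Cluster-8255.52452, described as 3.3, had 2.43, 1.46 and 1.5 FPKM under LP and 0.27, 0.13 and 0.19 under HP (log2 fold change 3.22, SE 0.39). Of the 2 unigenes described as 3.1-like, a type that imports sulfate into plastids in Arabidopsis, the abundant one fell. Cluster-8255.82923 had 0.81, 1.96 and 1.18 FPKM under LP and 28.0, 27.2 and 24.1 under HP, a fitted 19.9-fold decrease (log2 fold change -4.32, SE 0.29). It was the only called member of group 3 that was lower under LP. Cluster-8255.24361, by contrast, held 111, 208 and 139 reads under LP and 48, 0 and 12 under HP. Its HP libraries ranged from none to 48 reads, all below the LP libraries, and the change was not called (log2 fold change 2.66, SE 1.0). Summed over group 3, the level was 69.9 ± 8.16 FPKM under LP and 47.7 ± 1.27 under HP.

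Group 4 carriers release stored sulfate from the vacuole in Arabidopsis, although the descriptions of the 2 members, sulfate transporter 4.1, chloroplastic-like, name the plastid. Cluster-8255.79534 had 11.3, 12.2 and 12.8 FPKM under LP and 39.2, 28.6 and 41.4 under HP (log2 fold change -1.57, SE 0.15). HP 2 was again the lowest HP library and remained above all LP libraries. Cluster-8255.76480 had 3.46, 2.77 and 4.39 FPKM under LP and 6.91, 8.51 and 6.75 under HP (log2 fold change -1.04, SE 0.22). This was the smallest change among the called members, just past 2-fold, and its call was lost without LP 1 (-1.01), LP 2 (-0.87), HP 1 (-1.06), HP 2 (-0.92) or HP 3 (-1.11). The group sum was 15.7 ± 1.35 FPKM under LP and 43.8 ± 5.85 under HP.

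Set side by side, the groups made up different parts of the summed FPKM of the 20 listed sulfate transporters. Group 1 took 2.72% ± 1.08 of it under LP and 40.5% ± 2.34 under HP (mean ± SD, n = 3). Group 3 took 60.2% ± 0.81 and 26.8% ± 2.0, respectively. The share of group 2 was 23.4% ± 2.89 under LP and 8.24% ± 2.25 under HP, and that of group 4 was 13.7% ± 2.64 and 24.5% ± 1.78. Libraries of 1 treatment were alike in this make-up, and no group's share overlapped between treatments. The total was 116 ± 12.1 FPKM under LP and 179 ± 11.9 under HP. These shares cover listed unigenes alone, and sulfate transporters that did not differ between treatments are not among them.

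**Figure D2:**
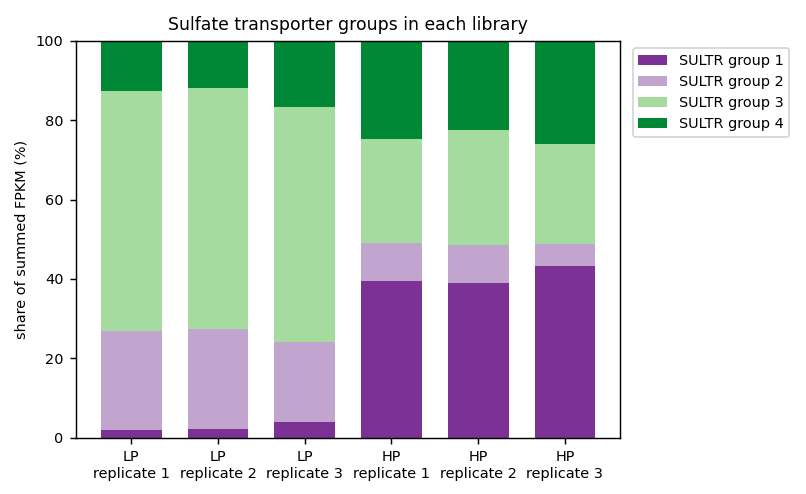
Share of each SULTR group in the summed FPKM of the 20 listed sulfate transporters (vertical axis, %), with 1 stacked bar for each of the 6 libraries. Group 1 takes 2.02% to 3.97% in the LP libraries and 39.0% to 43.2% in the HP libraries, and group 3 takes 59.3% to 60.8% and 25.1% to 29.0%.

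The sulfur enzymes that could be read beside the transporters moved in both directions. They came from the part of the study's table of changed genes that was available here, its first 1272 rows. They were thus also listed for this contrast, and unigenes with smaller changes may lie in rows not read. In those rows, each of the 7 unigenes matching SQD2, the enzyme of the last step of sulfolipid synthesis, was called higher under LP. Their fitted log2 fold changes were 4.55 to 14.4. Of the 7, 4 had no read under HP, so their fitted values (8.12 to 14.4) depend on how the fit treats zero counts and are not measured sizes. The most abundant, Cluster-8255.81109, had 78.3, 98.4 and 53.9 FPKM under LP and no read under HP, at least 2381-fold higher against the floor of 3 reads over the HP libraries. A unigene matching cysteine synthase, the enzyme that builds sulfide into cysteine, Cluster-8255.89997, went the other way, with no read under LP and 4.35, 4.86 and 3.55 FPKM under HP. It was at least 114-fold lower under LP.

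All 4 magnesium transporters were called lower under LP, each of them in every fit with a library left out. Cluster-8255.79500, MRS2-2-like, was the most abundant, with 9.21, 8.01 and 9.15 FPKM under LP and 20.2, 19.5 and 21.4 under HP (log2 fold change -1.19, SE 0.10). Cluster-8255.102529, also MRS2-2-like, had 0.25, 0.24 and 0.32 FPKM under LP and 2.19, 2.05 and 1.75 under HP (log2 fold change -2.91, SE 0.30). Replicates of both unigenes were close together and the treatments were well apart. Cluster-8255.68860, the third MRS2-2-like unigene, had no LP read and 90, 88 and 22 reads under HP. It was at least 84.0-fold lower under LP (at least 68.3-fold with any 1 HP library left out), and HP 3 held far fewer reads than HP 1 and HP 2. Cluster-8255.73892, MRS2-4-like, had 0.55, 0.37 and 0.82 FPKM under LP and 2.91, 3.15 and 1.97 under HP (log2 fold change -2.18, SE 0.38). The sum of the 4 was 9.64 ± 0.894 FPKM under LP and 27.0 ± 1.1 under HP, 2.8-fold lower under LP, and Cluster-8255.79500 made up 91.2% of it under LP and 75.4% under HP.

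Among the 4 metal tolerance proteins, 3 were called lower and 1 was called higher. The lower ones matched cation diffusion facilitators 8 and 11 of S. hamata, whose Arabidopsis counterparts MTP8 and MTP11 carry manganese. Cluster-8255.63869 (facilitator 8) was the most abundant, with 22.4, 29.0 and 31.6 FPKM under LP and 57.2, 59.9 and 59.3 under HP (log2 fold change -1.07, SE 0.14). The HP libraries were nearly level while LP 1 was the lowest of all, and without LP 1 (-0.93) the change was under 2-fold and the call was lost. Cluster-8255.50174 (facilitator 11) held 0, 3 and 9 reads under LP and 81, 104 and 81 under HP (log2 fold change -4.76, SE 0.85). Cluster-8255.121277, with the same description, had no LP read and 11, 14 and 44 reads under HP, at least 29.0-fold lower under LP. Most of its reads came from HP 3, and without that library the call was lost and the bound was 15.6-fold. Cluster-8255.51535, described as metal tolerance protein C4-like, rose, with 29.2, 33.3 and 29.1 FPKM under LP and 14.1, 14.6 and 16.0 under HP (log2 fold change 1.05, SE 0.10). Its change lay just past 2-fold, and it was called in each of the 6 fits that left out a library. The 2 abundant members went in opposite directions, and the sum was 58.3 ± 5.92 FPKM under LP and 79.5 ± 3.32 under HP.

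**Figure D3:**
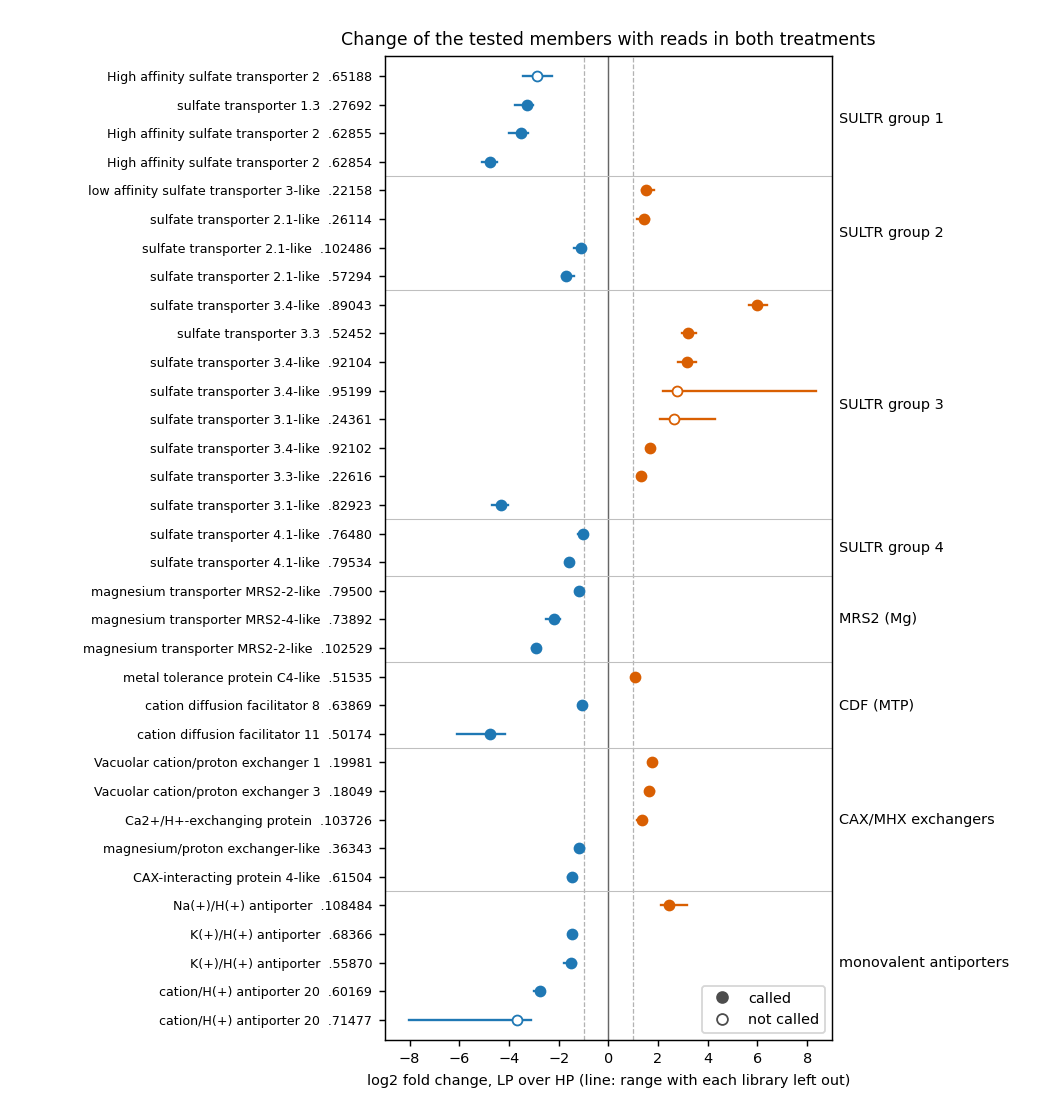
Fitted log2 fold change of LP over HP (horizontal axis) for the 34 tested members with reads in both treatments, grouped by role, with orange for higher and blue for lower estimates, filled points for called members and open points for the 4 that were not called. Lines run from the lowest to the highest estimate when each library was left out, dashed lines mark a 2-fold change, and the longest lines, for Cluster-8255.95199, Cluster-8255.71477 and Cluster-8255.24361, belong to members that were not called.

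The exchangers of divalent cations were divided by type. All 3 CAX-type calcium/proton exchangers rose under LP. Cluster-8255.103726, described as a Ca2+/H+-exchanging protein, had 26.5, 22.8 and 36.5 FPKM under LP and 11.2, 10.7 and 11.9 under HP (log2 fold change 1.36, SE 0.19). LP 3 was the highest library and the HP libraries were nearly level. Cluster-8255.18049, Vacuolar cation/proton exchanger 3, had 14.9, 18.2 and 19.3 FPKM under LP and 5.08, 7.19 and 4.74 under HP (log2 fold change 1.63, SE 0.26), and was the only member with an effective length under 500 bases. Cluster-8255.19981, Vacuolar cation/proton exchanger 1, had 7.0, 6.76 and 7.59 FPKM under LP and 1.88, 2.22 and 2.35 under HP (log2 fold change 1.74, SE 0.22). In each of these 3 unigenes the LP libraries were clear of the HP libraries.

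The other members of this kind fell. Cluster-8255.36343, magnesium/proton exchanger-like and named after a vacuolar exchanger of magnesium and zinc in Arabidopsis, had 7.2, 5.17 and 7.44 FPKM under LP and 14.4, 13.7 and 16.9 under HP (log2 fold change -1.17, SE 0.18). LP 2 was its lowest library, and without LP 2 (-1.0) the call was lost. Cluster-8255.61504, CAX-interacting protein 4-like, matches a protein that activates CAX1 of Arabidopsis and is not itself a transporter. It had 0.67, 0.83 and 0.99 FPKM under LP and 2.69, 1.77 and 2.45 under HP (log2 fold change -1.46, SE 0.25). Summed, the 5 unigenes had 60.6 ± 9.8 FPKM under LP and 36.4 ± 1.67 under HP. By counts scaled between libraries (library size and TMM factor) but not for length, the treatments overlapped.

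Antiporters of monovalent cations were mostly lower under LP, with 3 of 5 called lower and 1 higher. The 2 unigenes described as K(+)/H(+) antiporter of Medicago truncatula both fell. Cluster-8255.68366 was the most abundant of all 38 members in either treatment, with 44.7, 47.5 and 45.4 FPKM under LP and 140.4, 126 and 118 under HP (log2 fold change -1.47, SE 0.09). Cluster-8255.55870 had 5.36, 6.8 and 9.64 FPKM under LP and 21.6, 19.5 and 21.9 under HP (log2 fold change -1.51, SE 0.22). Every HP library of both unigenes was above every LP library. The 2 unigenes described as cation/H(+) antiporter 20, which in Arabidopsis acts in potassium balance of guard cells, differed widely in level. Cluster-8255.60169 had 4.19, 4.16 and 6.16 FPKM under LP and 37.4, 30.8 and 31.5 under HP (log2 fold change -2.76, SE 0.20). Cluster-8255.71477 held 0, 0 and 8 reads under LP and 33, 22 and 32 under HP, the LP reads all being from LP 3, and it was not called (log2 fold change -3.68, SE 1.24), the estimate being -8.01 without that library. Cluster-8255.108484, a putative Na(+)/H(+) antiporter, was the only one called higher, with 1.81, 1.11 and 1.13 FPKM under LP and 0.44, 0.18 and 0.13 under HP (log2 fold change 2.44, SE 0.53). Its call was lost without LP 1 (2.18), HP 2 (2.26) or HP 3 (2.11). The sum over the 5 was 59.4 ± 3.29 FPKM under LP and 184 ± 15.1 under HP, 3.1-fold lower under LP, of which Cluster-8255.68366 made up 77.2% and 69.5%.

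**Figure D4:**
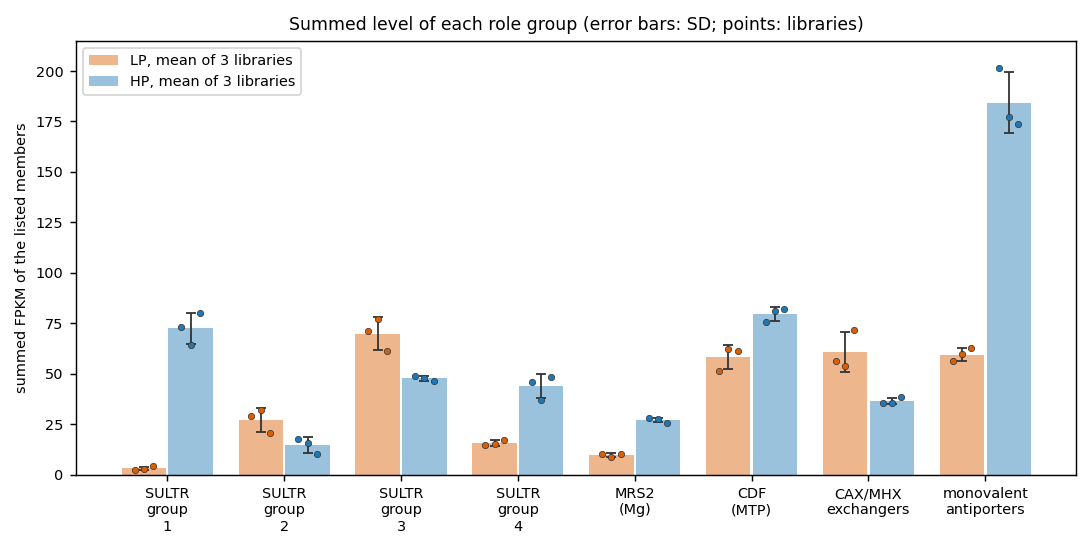
Summed FPKM of the listed members of each role group (vertical axis), with bars for the mean of 3 LP (orange) and 3 HP (blue) libraries, points for libraries and error bars for SD. SULTR groups 1 and 4, MRS2, the cation diffusion facilitators (CDF) and the monovalent antiporters sit higher in every HP library, and SULTR groups 2 and 3 and the CAX and MHX exchangers sit higher in every LP library.

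By level per length the same member came first in both treatments, and the order below it differed. Under LP, Cluster-8255.68366 (45.9 ± 1.42 FPKM, mean ± SD, n = 3) was followed by Cluster-8255.22616 (32.5 ± 1.58), Cluster-8255.51535 (30.5 ± 2.43), Cluster-8255.103726 (28.6 ± 7.12) and Cluster-8255.63869 (27.6 ± 4.77), and neighbours among the last 4 differed by less than the spread of their replicates. Under HP, Cluster-8255.68366 (128 ± 11.2) was followed by Cluster-8255.62854 (63.6 ± 7.2) and Cluster-8255.63869 (58.8 ± 1.42), of which the latter pair were within their spread, and then by Cluster-8255.79534 (36.4 ± 6.82), Cluster-8255.60169 (33.3 ± 3.64) and Cluster-8255.82923 (26.4 ± 2.06).

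Level, length and spread between replicates bear on whether a unigene passes a threshold, so for the members they are tied to the way of listing and are given as a description. Their mean level lay at a median of the 62.2nd percentile of all tested unigenes, and 28 of 37 were above the median level. Their median effective length was 2140 bases, against 1396 over all tested unigenes. Their median dispersion (spread between replicates) lay at the 33.8th percentile. Unigenes with the same description may be copies, alleles or fragments of 1 gene, among which the counting divides shared reads. For 22 of the 38 members (57.9%) the deposited count was not whole in any library, close to the 55.5% of all tested unigenes. All 6 deposited counts were whole, with no tolerance and with 0 taken as whole, in 5 members (13.2%) and in 18.2% of all tested unigenes. How reads were divided among members with a shared description was not tested.

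The members closest to the 2-fold limit of the list were Cluster-8255.76480 (-1.04), Cluster-8255.51535 (1.05), Cluster-8255.63869 (-1.07) and Cluster-8255.102486 (-1.12), given as log2 fold changes. The tested members outside the call were the 4 named above with a library at or near 0 reads (Cluster-8255.65188, Cluster-8255.24361, Cluster-8255.95199 and Cluster-8255.71477), whose estimates all exceeded 2-fold. This depends on the test, since DESeq2, which the study used, called 3 of these 4, all but Cluster-8255.95199.

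Transporters of other metals and cations on the same list, chosen in the same way, were mostly lower under LP as well. Of 43 listed under potassium, zinc, yellow stripe-like (YSL), Nramp and sodium, 42 were tested and 40 called, 9 higher and 31 lower. Over all tested unigenes 13.2% were called, 6.09% higher and 7.10% lower. Because these sections were listed for this contrast, nothing is read from that excess. All 12 zinc transporters were called lower, as were 7 of 9 YSL transporters of metal chelates and all 3 unigenes listed under sodium. Potassium transporters were divided, with 5 of 13 tested called higher and 7 lower, and Nramp metal transporters had 2 of each among 5. Outside the list, 2 unigenes described as cation/H(+) antiporter 15-like were higher under LP. They came from the part of the study's changed genes available here, and others may lie outside that part. Of the 2, Cluster-8255.15533 had 16.2, 17.5 and 23.0 FPKM under LP and 0.82, 0.57 and 0.35 under HP.

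Signs of other tissue or organisms were looked for in the same 1272 rows, and matches in other rows would have been missed. Photosynthetic matches were 2, both higher under LP. Cluster-8255.71546, matching a photosystem I subunit, held 707, 840 and 630 reads under LP and none under HP, and Cluster-8255.116774, matching an algal chlorophyll-binding protein, held 24, 21 and 14 and 0, 0 and 1. Matches to Phytophthora, a root pathogen, were also 2. Cluster-22675.0 had no LP read and 14, 27 and 15 reads under HP, and Cluster-8255.121106 held 27, 9 and 30 and 0, 2 and 0 and was not tested. Their part in the changes of the transporters was not tested. No root marker that is level between treatments is named in the sources used here, so the tissue could not be checked that way.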

How the data were processed

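RNA-seq of 6 root libraries (3 LP, 3 HP) was used. Per the methods and labels, the authors assembled the reads of all samples into unigenes with Trinity and estimated counts with RSEM (the submitters' notes name Bowtie2 2.2.3); no genome was used. The deposited estimated counts were not normalized and need not be whole, and the deposited FPKM values were scaled by the authors for unigene length and library size. It is not stated whether reads were counted by strand, so overlapping and antisense unigenes are uncertain.

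Estimated counts were rounded to whole numbers, filtered with filterByExpr (minimum count 10), scaled by TMM and tested over all unigenes with edgeR 4.0.16 (quasi-likelihood, Benjamini-Hochberg adjustment; R 4.3.3). The common biological coefficient of variation was 0.420. The SE is the log2 fold change divided by the square root of the F statistic. Lower bounds used a floor of 3 reads over the treatment without reads and cover counting error in that treatment only. The reads of the other treatment were taken as observed, and the spread between replicates is not covered. The steps were tested on simulated data. Replicates differed by more than sampling noise (chi-square per degree of freedom 5.93 to 20.0). Adjusted p-values weigh the difference between treatments against the spread between the sampled boxes.

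The alternatives were other scaling factors, no filter, DESeq2 1.42.0, limma 3.58.1 on log2(FPKM + 1) and log2(FPKM + 0.1) with a minimum FPKM of 0.3 in 3 libraries, limma on log2(FPKM + 1) without it, a replicate block, each library left out, and sums by CPM or TPM. All 38 members are named by rule: the 2 most abundant of each role group, members sharing a description, those without reads in a treatment or not called, the extremes of each section, and the rest briefly. Members, role groups and lists were chosen with earlier results of these data known. Sequences of the members were not used here.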

Additional observations from a re-analysis of the deposited data

How the results depend on the processing

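No member changed direction under any alternative. Over 516 values of single members under 14 alternatives, 447 stayed on the same side of the call, 55 lost it and 14 gained it, and 18 called members never lost it. Members called numbered 33 with either other scaling, 32 without the filter, 36 by DESeq2, 27 by limma on log2(FPKM + 1), 35 on log2(FPKM + 0.1), 25 by limma on log2(FPKM + 1) without the filter and 26 to 34 with 1 library left out. Sulfate transporters called lower fell from 9 to 5 under both limma fits with a pseudocount of 1, and were 5 to 9 with 1 library left out. The MTP called higher was 0 under those limma fits, where its change was under 2-fold. Over all unigenes, calls ranged from 5586 to 8183 with a library left out, and those lower under LP from 2668 (without HP 1; 2836 without HP 3) to 4851. By summed CPM the log2 ratio of LP to HP was 0.86 for SULTR group 3, -1.51 for monovalent antiporters, 0.34 for CAX and MHX exchangers and -0.26 for cation diffusion facilitators, against 0.55, -1.63, 0.74 and -0.45 by FPKM. Without the member under 500 bases the CAX and MHX value was 0.49. Apart from these, the cause of a lost call was not tested.

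Same-numbered libraries deviated from their treatment means with correlations of -0.01, 0.04 and 0.05, against -0.06 to 0.03 for libraries with different numbers. All were small, but 3 libraries per treatment cannot exclude that the replicate numbers pair the samples. With the replicate number as a block, 5167 unigenes (2338 higher, 2829 lower) and 26 members were called, 5 of them sulfate transporters that were lower. Depth limits the members near 0 reads, for which a library without reads does not show absence.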

Other observations

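In 2 places, reads of members with like descriptions were complementary between the HP libraries, a pattern chosen after the values were seen and given without a test. Cluster-8255.57695 and Cluster-8255.65188, both High affinity sulfate transporter 2, held 97, 0 and 68 and 119, 173 and 130 reads in HP 1, 2 and 3, so that HP 2, with none of the former, had the most of the latter. Their normalized sum varied between HP libraries with a coefficient of variation of 4.50%, against 88.7% and 27.2% singly, and was 10.1-fold lower under LP. The LP libraries did not show this, since Cluster-8255.57695 had no LP read and Cluster-8255.65188 none in LP 2, and the sum varied by 87.7% there, as Cluster-8255.65188 did alone. Cluster-8255.95199 and Cluster-8255.92104, both sulfate transporter 3.4-like, held 16, 0 and 0 and 6, 17 and 21 reads in the HP libraries, and their sum varied by 8.07%, against 173% and 55.7% singly. Under LP the sum varied by 14.9%, against 44.0% and 23.7% singly.

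Around the 2 pairs of members numbered within 2 of each other (Cluster-8255.62854 and Cluster-8255.62855, Cluster-8255.92102 and Cluster-8255.92104), the 5 unigenes with numbers next to or between them were not among the 38, and the sources used here give no description for them. Cluster-8255.62853, next to the most abundant high-affinity carrier, was lower under LP (log2 fold change -1.84), whereas Cluster-8255.62856 was not called (-0.44). Cluster-8255.92101 and Cluster-8255.92105, next to the sulfate transporter 3.4-like unigenes, which rose, were called lower (-1.45 and -1.30). Cluster-8255.92103 had no read in any library.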
